A study of Saccharomyces cerevisiae with 6 samples.

Results

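The 40 genes described here act in yeast meiosis and spore formation, and they were followed in vegetative diploid cells exposed to a lipid hydroperoxide. They were chosen by name from the meiosis and sporulation literature, as 8 regulators, 19 early genes of recombination and synapsis, 9 middle genes and 4 late genes. The choice was made with earlier results of these data known. All 40 were found among the 5449 genes of the array, each with 1 probe set. Cells were Saccharomyces cerevisiae BY4743, a diploid laboratory strain of the S288C background, which is known to sporulate poorly. It carries deletions of LEU2 and URA3 and part of HIS3 on both homologues and is heterozygous for deletions of LYS2 and MET15, and treated and control cultures share all of these. Cultures in minimal medium at 30 °C received at OD600 1.0 either 75 µM linoleic acid hydroperoxide (LoaOOH), a dose the labels call arresting, or the same volume of methanol, its solvent, and RNA was taken after 1 h. There were 3 biological replicate cultures per group, and the RNA of each went onto its own Affymetrix Yeast 2 array. Values are on the log2 scale, as made by the RMA procedure, so a difference of 1 is a 2-fold change relative to the typical message. They are averages over a whole culture, in which fewer expressing cells and less message per cell cannot be told apart.

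Diploid yeast enter meiosis when starved of nitrogen and of fermentable sugar. Those signals meet at IME1, the transcription factor that with the DNA-binding protein Ume6 turns on the early genes, which pair the homologues, break their DNA and recombine them. The kinase Ime2 and the transcription factor Ndt80 then open the middle genes for the nuclear divisions and the prospore membrane, and late genes harden the spore wall. In growing cells the early genes are held down by Ume6 with the Sin3 and Rpd3 corepressors, and many middle genes by Sum1. Ume6, Rim11 and Rim15 also act in vegetative cells.

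The 40 genes did not move as a block. A probe set was called where limma's adjusted p, over all 5498 gene probe sets, was under 0.05. Of the 40 genes 16 rose, 14 fell and 10 were not called, so that 75% were called, against 78.7% of all gene probe sets. Their median log2 difference was -0.01, and that of all gene probe sets was -0.03. The changes of at least 0.5 on the log2 scale ran both ways, with 7 genes higher and 7 lower, 14 of 40 against 33.3% of all gene probe sets (15.5% higher and 17.8% lower). Of these MND1, IME1, RIM4 and SPS4 changed at least 2-fold, 4 of 40 against 9.17% of all gene probe sets. The largest rise among the 40 was that of MND1, an early recombination gene, and the largest fall that of SPS4, here a middle gene. Classes were assigned from general knowledge of timing, and SPS4 and SGA1 could be placed differently, which would move their falls between the middle and late counts. By class, 6 of 8 regulators rose and 1 fell, 5 of 19 early genes rose and 8 fell, 3 of 9 middle genes rose and 4 fell, and 2 of 4 late genes rose and 1 fell. Among all gene probe sets 36.8% were called higher and 41.9% lower. In 30 of the 40 genes the LoaOOH and methanol arrays did not overlap, a state found in 81.1% of all gene probe sets.

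The scaling of the arrays bears on these directions. Bacterial poly-A messages spiked into the RNA, read by 36 probe sets, were at 7.44 ± 0.165 (SD, n = 3) in methanol and 6.93 ± 0.125 in LoaOOH (exact two-sided permutation p = 0.1, the smallest that 3 against 3 arrays allow). Scaling to them raises every difference by 0.518. The error of that offset is shared by all probe sets, but the fit treats it as separate for each. Calls gained or lost in that scaling therefore rest on the offset, and their adjusted p-values do not carry its shared error. In that scaling 28 of the 40 genes were called higher, 4 lower and 8 not called, with a median of 0.51 against 0.484 for all gene probe sets, of which 65.9% were called higher and 7.68% lower. All 16 genes that rose in the deposited scaling also rose there. Of the 14 that fell, only SPS4, MSH4, REC102 and SPS1 fell in both scalings, while 8 were not called and SPO13 and REC8 were called higher. The spike-in calls of SPS1 and REC102 had limma adjusted p = 0.0469 and 0.028, which also do not carry the shared error of the offset. Unless the spike-ins are named, a direction given here refers to the values as deposited.

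Background sets a limit at the low end. The brightest negative control probe set, for a sequence the cells do not hold, reached a group mean of 5.18. Both group means of HOP2, MEK1, SPO13, MEI5, SPS2 and DIT2 lay below it, so for these 6 genes no fold is given. The probe set of LEU2, which the strain lacks, was at 5.39 in methanol and 5.64 in LoaOOH and was itself called higher (log2 difference 0.25, adjusted p = 0.0175). Only 3 members were called with a smaller difference than that, namely SPO13 (-0.18), REC8 (-0.14) and SSP1 (0.23). The LEU2 difference had an SE of 0.081. Called differences of nearly its size, such as those of IME2 (0.27), NDT80 (0.27), RED1 (-0.28), DMC1 (0.28) and REC114 (0.28), are thus not clearly larger than it.

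**Figure D1:**
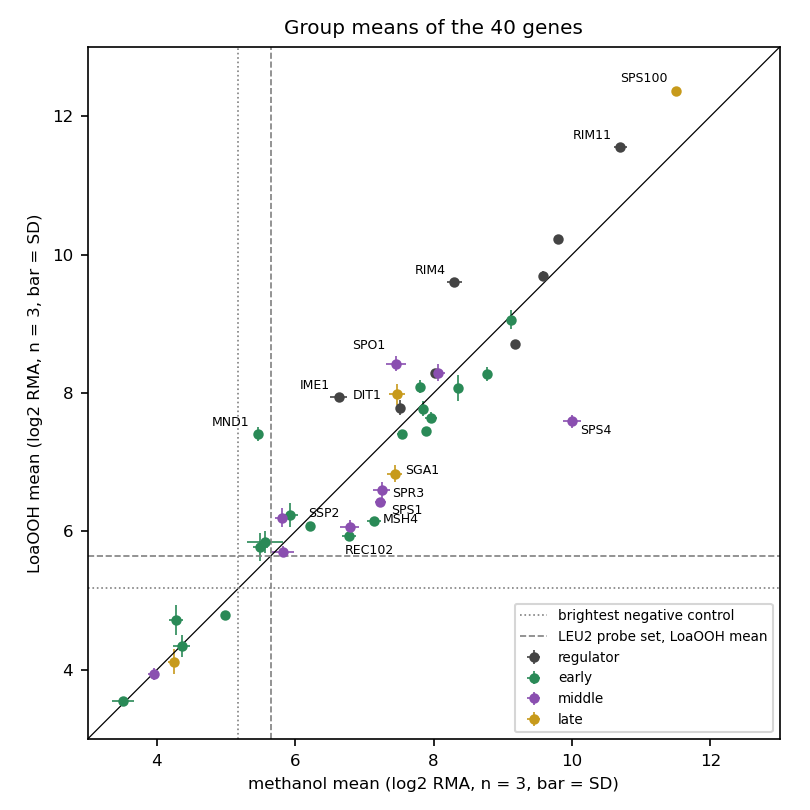
Mean log2 RMA value of each of the 40 genes in methanol (horizontal) and LoaOOH (vertical), with SD bars over 3 arrays, coloured by class. Genes called with a difference of at least 0.5 are named, the diagonal marks equality, and the grey lines mark the brightest negative control at 5.18 and the LoaOOH mean of the LEU2 probe set at 5.64. SPS4 lies far below the diagonal, MND1, IME1 and RIM4 lie far above it, and 6 genes lie below both grey lines on both axes.

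Among the regulators IME1 (YJR094C), the master activator of meiotic entry, rose 2.48-fold. Its methanol arrays read 6.76, 6.60 and 6.52 and its LoaOOH arrays 7.95, 7.98 and 7.88. All LoaOOH values lay more than a log2 unit above all methanol values (difference 1.31, SE 0.064, n = 3 per group, adjusted p = 1.57e-07). RIM4 (YHL024W), an RNA-binding protein that holds back translation of a set of meiotic messages, rose almost as far. It read 8.41, 8.28 and 8.20 in methanol and 9.59, 9.60 and 9.61 in LoaOOH, so its treated arrays were nearly the same and its control arrays spread more widely (difference 1.30, SE 0.057, adjusted p = 8.82e-08). RIM11 (YMR139W), a kinase of the GSK-3 family that phosphorylates Ime1 and Ume6, rose 1.80-fold. It went from 10.74, 10.76 and 10.59 to 11.53, 11.60 and 11.51, with no overlap between the groups (difference 0.85, SE 0.056, adjusted p = 1.02e-06).

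The next steps of the cascade changed less. IME2 (YJL106W), the kinase made under Ime1 control, read 7.51, 7.56 and 7.47 in methanol and 7.71, 7.91 and 7.74 in LoaOOH (difference 0.27, SE 0.06, adjusted p = 0.00228). NDT80 (YHR124W), the activator of middle genes, read 8.01, 8.05 and 7.996 in methanol and 8.29, 8.31 and 8.28 in LoaOOH (difference 0.27, SE 0.04, adjusted p = 2e-04). Both rose 1.21-fold, a small change that was larger than the spread within either group. UME6 (YDR207C), which represses the early genes in growing cells and recruits Ime1 in starved ones, rose 1.35-fold, from 9.86, 9.75 and 9.77 to 10.26, 10.23 and 10.19 (difference 0.43, SE 0.047, adjusted p = 2.81e-05). IME4, the messenger RNA N6-adenosine methyltransferase needed for efficient meiotic entry, was the member of this class that fell (difference -0.46, SE 0.045, adjusted p = 1.33e-05), and under spike-in scaling it lost the call (0.06). RIM15, a nutrient-controlled kinase upstream of Ime1, had a difference of 0.11 and was not called (adjusted p = 0.052). It was called higher in 7 other settings, the spike-in scaling among them (0.63).

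**Figure D2:**
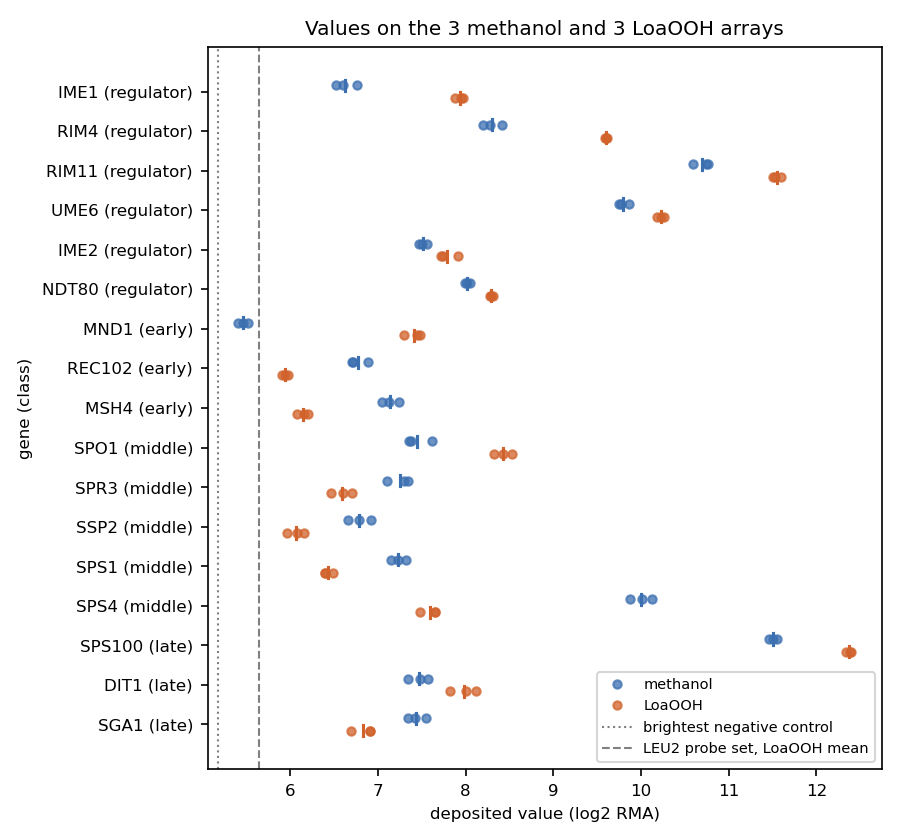
Deposited log2 RMA value on each array (points) and group mean (ticks) for the 17 genes given with single values, grouped by class and ordered within it by difference. Methanol is blue and LoaOOH orange, and in none of these genes do the 3 arrays of one group overlap those of the other. The dotted line marks the brightest negative control and the dashed line the LEU2 probe set, and only the methanol values of MND1 lie between them. The lowest LoaOOH values of REC102 (5.90) and SSP2 (5.96) lie next above the dashed line.

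Among the 19 early genes MND1 stood out (YGL183C). Mnd1 works with Hop2 to help the recombinase Dmc1 invade the homologous chromosome. MND1 read 5.41, 5.52 and 5.46 in methanol and 7.29, 7.48 and 7.45 in LoaOOH (difference 1.94, SE 0.059, adjusted p = 1.17e-08). The methanol values lay just above the brightest negative control and the methanol mean of the LEU2 probe set (5.39) and below its LoaOOH mean (5.64), so the fold was 3.85 as measured and at least 3.40 against that LoaOOH mean. HOP2, the gene of its partner protein, was called higher by 0.44 (SE 0.099, adjusted p = 0.00308), but with both means below the brightest negative control, at 4.28 and 4.72.

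Of the other members that act in strand invasion, DMC1 and MEI5 had smaller differences. DMC1, the meiosis-specific recombinase, rose 1.22-fold (difference 0.28, SE 0.057, adjusted p = 0.00157). MEI5, whose product loads Dmc1 onto DNA together with Sae3, was below background with a difference of 0.04 and was not called (adjusted p = 0.662).

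REC102 (YLR329W) and MSH4 (YFL003C) were the early genes that fell most. Rec102 is a partner of Spo11, the enzyme that makes the meiotic double-strand breaks. REC102 read 6.72, 6.89 and 6.71 in methanol and 5.90, 5.98 and 5.94 in LoaOOH, a fall of 1.78-fold (difference -0.83, SE 0.057, adjusted p = 1.34e-06; spike-in scaling -0.32, also called). The rest of the break machinery did not follow it. SPO11 itself (-0.06, adjusted p = 0.446), REC104 (-0.13, adjusted p = 0.0505) and MEI4 (0.29, adjusted p = 0.0613) were not called, and REC114 rose by 0.28 (adjusted p = 0.0255). Of these 5 genes REC114 and MEI4 varied most between arrays, with SDs up to 0.208 and 0.26, and their groups overlapped. Their methanol means (5.49 and 5.56) lay below the LoaOOH mean of the LEU2 probe set (5.64), and their differences were near the LEU2 difference (0.25). The REC114 call was lost without methanol replicate 2, methanol replicate 3 or LoaOOH replicate 2 (adjusted p = 0.0752, 0.0749 and 0.067). The MEI4 difference was called without methanol replicate 3 or LoaOOH replicate 1 (adjusted p = 0.00928 and 0.0307), and with array weights or centring on array medians (adjusted p = 0.00293 and 0.0416). REC104 was called lower without methanol replicate 1 or LoaOOH replicate 2 (adjusted p = 0.0321 and 0.0347) and with array weights (adjusted p = 0.0349), and both genes were called higher in the spike-in scaling (0.80 for MEI4 and 0.39 for REC104).

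Msh4 and Msh5 form a pair that stabilises recombination intermediates bound to become crossovers. MSH4 read 7.05, 7.12 and 7.24 in methanol and 6.15, 6.08 and 6.21 in LoaOOH, a fall of 1.99-fold (difference -0.99, SE 0.059, adjusted p = 5.55e-07; spike-in scaling -0.47, also called). MSH5 fell by 0.50 (SE 0.055, adjusted p = 3.02e-05), just short of the 0.5 used for listing single values. ZIP2, which works at the same crossover sites, fell by 0.44 (adjusted p = 2.03e-05). MSH5 and ZIP2 lost their calls under spike-in scaling (0.02 and 0.08). ZIP1, the central strut of the synaptonemal complex, had a difference of -0.07 and was not called (adjusted p = 0.316). Messages of the axis proteins on which that complex is built showed small falls, HOP1 by 0.31 (adjusted p = 0.00126) and RED1 by 0.28 (adjusted p = 0.0123). Both lost the call under spike-in scaling (0.21 and 0.24). MEK1, the gene of the axis kinase, was below background (-0.01, adjusted p = 0.919).

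The other 3 early genes had small differences. REC8, the meiotic cohesin subunit, was lower by 0.14 (adjusted p = 0.0257), a call that 3 of the 6 fits leaving out an array lost (adjusted p up to 0.104) and that turned to 0.38 in the spike-in scaling. SPO13, which helps to keep sister chromatids together in the first division, was lower by 0.18 at background level and higher by 0.33 in the spike-in scaling. MER1, a meiosis-specific splicing factor, rose by 0.31 (adjusted p = 0.0108).

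**Figure D3:**
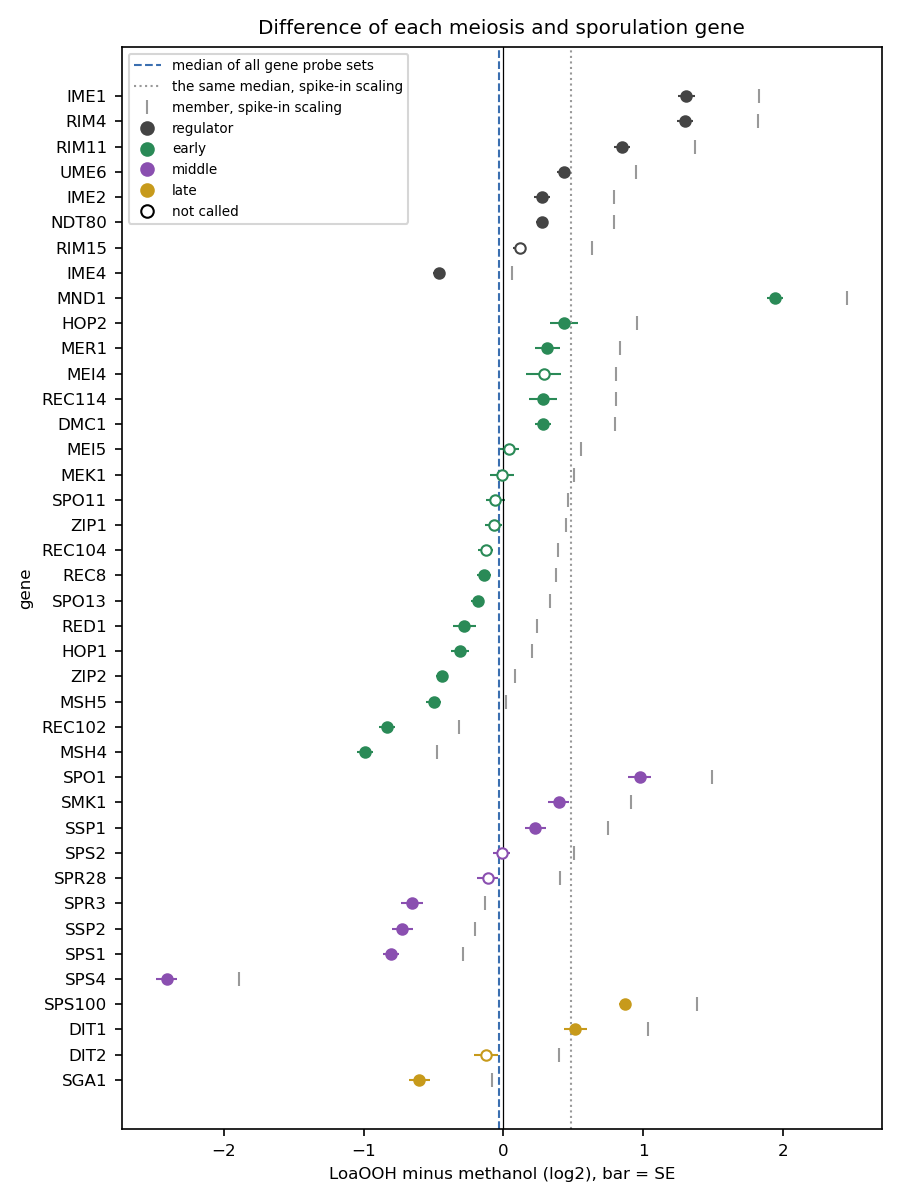
LoaOOH minus methanol on the log2 scale for each of the 40 genes, with SE bars, coloured by class and ordered within it, with filled points for called and open points for uncalled genes. Grey ticks give the same difference scaled to the poly-A spike-ins, and vertical lines give the median of all gene probe sets in each scaling (-0.03 and 0.484). Regulators lie mostly to the right of the median, and the middle genes fall into risers and fallers on both sides of it.

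The middle genes held 3 rises and 4 falls. SPS4 (YOR313C), a sporulation gene of unclear biochemical role, fell 5.32-fold. It read 9.87, 10.01 and 10.12 in methanol and 7.48, 7.65 and 7.65 in LoaOOH, so it was well above background in both groups (difference -2.41, SE 0.074, adjusted p = 1.2e-08). Its fall was -1.89 in the spike-in scaling and was called there too. SPO1 (YNL012W), a phospholipase B homologue needed for meiosis and the prospore membrane, went the other way. It read 7.36, 7.38 and 7.62 in methanol and 8.32, 8.43 and 8.53 in LoaOOH, a rise of 1.96-fold (difference 0.97, SE 0.08, adjusted p = 4.22e-06).

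Genes of the spore-forming kinases also changed in both directions. SPS1 (YDR523C), a kinase of the Ste20 family needed for the spore wall, read 7.32, 7.22 and 7.15 in methanol and 6.396, 6.489 and 6.394 in LoaOOH (difference -0.80, SE 0.055, adjusted p = 1.31e-06; spike-in scaling -0.29, also called). SMK1, the sporulation-specific MAP kinase of the same process, rose by 0.39 (SE 0.076, adjusted p = 0.00113). SSP2 (YOR242C), whose product activates Smk1, went from 6.78, 6.65 and 6.92 to 5.96, 6.08 and 6.15 (difference -0.72, SE 0.076, adjusted p = 2.11e-05). So the kinase message and the message of its activator differed in opposite directions in the deposited scaling, and SSP2 lost its call under spike-in scaling (-0.21).

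Of the sporulation septins, which line the growing prospore membrane, SPR3 (YGR059W) fell from 7.10, 7.30 and 7.34 to 6.61, 6.47 and 6.71 (difference -0.65, SE 0.079, adjusted p = 5.75e-05). Under spike-in scaling the call was lost (-0.13). SPR28, the other septin, was not called (-0.11, adjusted p = 0.199), and its groups overlapped. SSP1, a coat protein at the leading edge of that membrane, was called higher by 0.23 (adjusted p = 0.0181), a call lost without methanol replicate 2 or LoaOOH replicate 3 (adjusted p = 0.0708 and 0.0709). SPS2, a spore wall protein encoded next to SPS1, was below background (-0.01, adjusted p = 0.855).

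Among the late genes SPS100 (YHR139C), which protects the spore wall, rose 1.83-fold. It read 11.55, 11.46 and 11.50 in methanol and 12.34, 12.40 and 12.38 in LoaOOH (difference 0.87, SE 0.044, adjusted p = 2.03e-07). It was far above background in the growing control cells too. DIT1 (YDR403W), which makes the dityrosine precursor of the outermost spore layer, rose 1.43-fold, from 7.35, 7.48 and 7.57 to 7.82, 8.12 and 8.01 (difference 0.51, SE 0.083, adjusted p = 0.000375). DIT2, the cytochrome P450 that acts after Dit1 and is transcribed from the same intergenic region, was below background and not called (-0.12, adjusted p = 0.213). SGA1 (YIL099W), the glucoamylase that breaks down glycogen in sporulating cells, fell 1.52-fold, from 7.55, 7.42 and 7.34 to 6.91, 6.91 and 6.69 (difference -0.60, SE 0.074, adjusted p = 6.26e-05). Scaled to the spike-ins it was not called (-0.08).

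Chromosomal neighbours were examined for the 17 genes given with single values, by gene order in the S288C assembly R64. MND1 rose together with both genes beside it. STR3, a sulfur amino acid gene on the same strand to its left, rose by 1.67, and GTS1, which is divergent from MND1 on its right, rose by 1.32. SPS4 was different, since RPL20B on its left had a difference of 0.05 (adjusted p = 0.371) and its other neighbour has no gene probe set here. The neighbours of IME1 had smaller differences than IME1 itself, FIP1 at 0.49 (called higher) and RPL43B at -0.01 (adjusted p = 0.767). Neither neighbour of RIM4 was called higher, with SNF6 at -0.08 (adjusted p = 0.0928) and NPR3 falling by 0.25. SPR3 fell between PEF1 and ERG25, which rose by 1.04 and 0.88. SPS100 and the neighbouring YHR138C rose together, the latter by 1.08, and SGA1 fell with the divergent XBP1, which fell by 1.23. At least 1 neighbour was called the same way with a difference of 0.5 or more for 7 of the 17 genes, through 8 of the 30 neighbours with a gene probe set. That count was not tested, and 15.5% of all gene probe sets were called higher and 17.8% lower at that size. No member overlapped another protein-coding gene in that assembly.

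**Figure D4:**
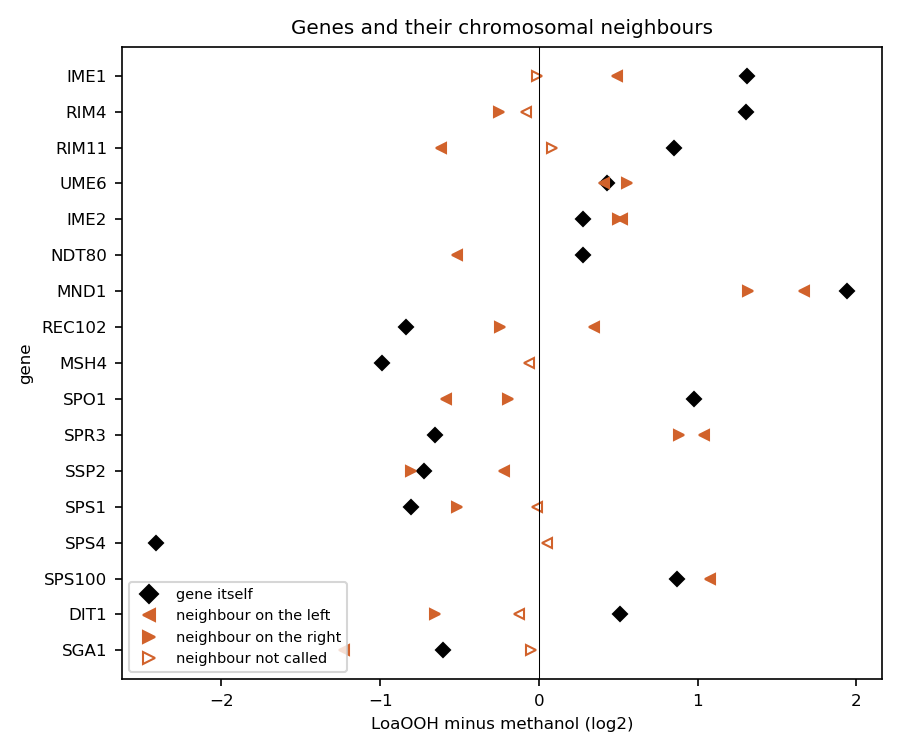
LoaOOH minus methanol on the log2 scale for the 17 genes (black diamonds) and for the genes directly to their left and right on the chromosome (orange triangles pointing to that side, open where not called). A neighbour without a gene probe set here has no triangle. Both triangles of MND1 lie beside its own rise, and the triangle of SPS4 lies at 0.05, far from its fall of -2.41.

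Other genes of the same process were read from a list of 74, of which 73 had a gene probe set (HED1 is not analysed here). Of these 23 rose, 29 fell and 21 were not called, with a median of -0.05. In the spike-in scaling 50 were called higher and 5 lower, beside 65.9% and 7.68% of all gene probe sets. The share called was 71.2%, beside 78.7% of all gene probe sets (36.8% higher and 41.9% lower).

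Of 15 other regulators 4 rose, 9 fell and 2 were not called, beside 36.8% of all gene probe sets called higher and 41.9% lower. The rises with the largest differences were those of RIM101 (0.64), a zinc finger protein that promotes IME1 expression, SLZ1 (0.50), a partner of Ime4 in messenger RNA methylation, and HST1 (0.26), the deacetylase that acts with Sum1. XBP1, a repressor made under stress, fell by 1.23 (SE 0.07, adjusted p = 4.4e-07), RPD3, the deacetylase that Ume6 recruits, by 0.54, and RME1, a repressor of IME1, by 0.48. Of these 3 falls XBP1 alone was called in the spike-in scaling (-0.71). Grouped by complex after the values were seen, the Ume6 corepressor genes SIN3, RPD3 and ISW2 were all lower while UME6 itself was higher, and SUM1 (-0.45) and RFM1 (-0.39) were lower while HST1 was higher. Under spike-in scaling SIN3 and ISW2 were called higher, and RPD3, SUM1 and RFM1 lost their calls.

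Of 15 other early genes 4 rose, 7 fell and 4 were not called, again beside 36.8% higher and 41.9% lower among all gene probe sets. SPO16, a crossover protein, fell 3.45-fold (difference -1.79, SE 0.086, adjusted p = 1.48e-07; spike-in scaling -1.27). AMA1, the meiotic activator of the anaphase-promoting complex, fell by 1.06 and was lower in the spike-in scaling too (-0.54), and SPO22 fell by 0.64 and was not called there (-0.12). The rises above background were smaller, with REC107, a member of the break machinery, at 0.40 and MAM1, which orients sister kinetochores in the first division, at 0.28. SAE3 was called higher too, but both its means (3.46 and 4.04) lay below the brightest negative control, so no size is given.

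The genes of both lists were also grouped by function, after the values were seen and with no test. Of the 8 crossover and synapsis genes ZIP1, ZIP2, CST9, SPO22, SPO16, MSH4, MSH5 and HFM1, 7 fell and ZIP1 was not called (median -0.47). In the spike-in scaling SPO16 and MSH4 were lower, ZIP1 and CST9 were higher and 4 were not called. The synapsis genes ECM11 and GMC2 of the other list were not put in this group. ECM11 was not called (-0.02, adjusted p = 0.924) and GMC2 was called lower, both genes lying below the brightest negative control. Of the 6 strand invasion genes DMC1, MEI5, SAE3, MND1, HOP2 and RDH54, 5 rose and MEI5 was not called (median 0.36), but HOP2, SAE3 and MEI5 lay below the brightest negative control. Other groups made in the same way were mixed or small. Of 6 break machinery genes 2 rose, 1 fell and 3 were not called. Of 4 genes of messenger RNA methylation 1 rose, 1 fell and 2 were not called, and of 3 axis and axis kinase genes 2 fell and 1 was not called. Among all gene probe sets 36.8% were called higher and 41.9% lower in the deposited scaling.

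Of 43 other middle and late genes 15 rose, 13 fell and 15 were not called. The shares over all gene probe sets were 36.8% higher and 41.9% lower. OSW2, a spore wall gene, rose by 1.12 (SE 0.044, adjusted p = 4.72e-08), RRT12, a spore wall protease gene, by 0.98, and BNS1 by 0.65. The methanol mean of RRT12 (5.24) lay just above the brightest negative control and below the methanol mean of the LEU2 probe set (5.39). GAS2, a glucan-modifying enzyme of the spore wall, fell by 1.53 (SE 0.077, adjusted p = 1.91e-07) and DON1, a protein of the prospore membrane edge, fell by 1.14, both being lower in the spike-in scaling as well (-1.01 and -0.62). CDA1, a chitin deacetylase gene, fell at least 1.53-fold, to below the brightest negative control (adjusted p = 4.87e-05), and lost its call under spike-in scaling (-0.26).

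**Figure D5:**
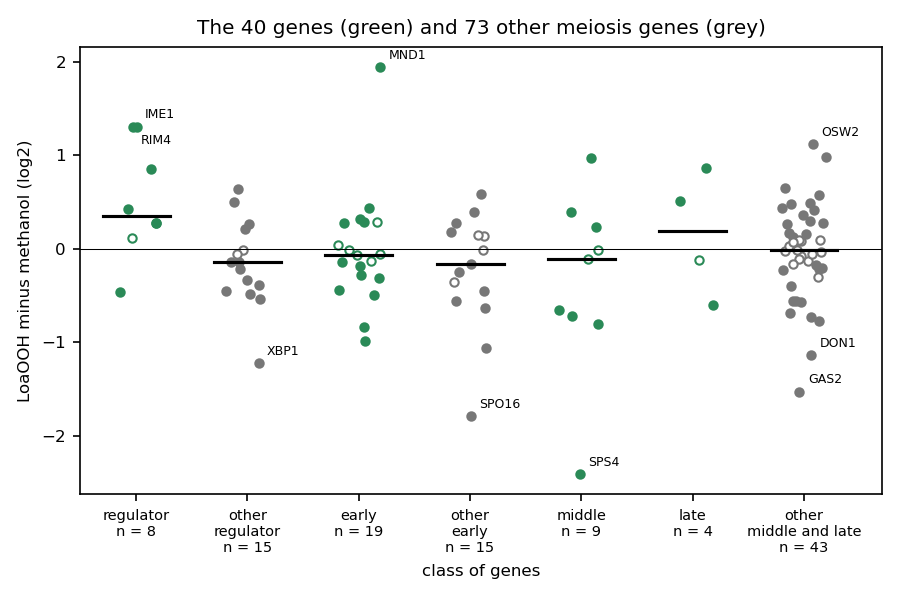
LoaOOH minus methanol on the log2 scale for the 40 genes (green) and the 73 other meiosis genes (grey) by class, with filled points for called and open points for uncalled genes and a bar at each class median. Genes are spread sideways only to separate the points. The member regulators have a median of 0.35 and the other regulators of -0.14, while the medians of the early and middle classes lie between -0.16 and -0.01 and that of the late members at 0.19.

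The diploid label was set against 18 genes that are specific to haploid cells or to a mating type. Their methanol means ran from 5.05 to 10.5, and of the 18 only FUS3 (5.05) lay below the brightest negative control there. Between the groups 6 rose, 6 fell and 6 were not called, so that 12 of 18 were called beside 78.7% of all gene probe sets. None was called with a difference of 1 or more, a size reached by 9.17% of all gene probe sets. AXL1 (-0.95) and MFA2 (-0.89) had the largest falls of the 18 and were lower in the spike-in scaling too (-0.43 and -0.38), and STE6 (0.47) and GPA1 (0.41) had the largest rises. The pheromone receptor genes STE2 (-0.08) and STE3 (-0.07) were not called as deposited and were called higher in the spike-in scaling (0.44 and 0.45). Whether these probe sets read true message in this strain was not tested. The URA3 gene probe set, for a gene the strain lacks, read 3.50 in methanol and 3.37 in LoaOOH, below the negative controls, while that of HIS3, which is deleted only in part, rose by 1.43.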

How the data were processed

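RNA of 6 cultures was hybridised to 6 arrays. The authors deposited log2 values made with RMA, which equalises the array distributions, so differences are relative to the typical message. RMA and Partek are named, per the submitters' processing notes, without versions. Of 5900 probe sets 184 were controls, 218 lacked an annotated gene, and 5498 entered the fit with limma 3.58.1 under R 4.3.3 (lmFit, eBayes, two-sided, no covariate, Benjamini-Hochberg over all 5498, called at an adjusted p under 0.05). Precision is limited by the number of arrays (median SE 0.0527). Correlations were 0.998 to 0.999 within a group and 0.951 to 0.954 between groups. Groups come from the sample titles, the replicates are biological per the labels, and the sources do not say whether cultures came from a shared parent, so p-values may measure only the spread between these samples.

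The members and lists were chosen with earlier results of these data known. Given with single values were IME1, IME2, NDT80 and UME6 and every member called with a difference of at least 0.5. From each class of other genes up to 3 rises and 3 falls were named, and markers were to be named at a difference of 1 or more; further names from these lists were added after values were seen. On simulated data with the same group sizes, 5498 probe sets with 50 changed at each size, the fit recovered 62% at a change of 0.25, 92% at 0.5 and 100% at 1 and 2, with 9 of 5298 unchanged probe sets called. The share changed there was far below the 78.7% called in the data, and noise was drawn independently for each probe set. These recovery and false-call figures therefore may not hold for the data. Alternatives covered scaling, the variance model, array weights, filters, thresholds, a replicate block and each array left out. Sequences were not used here.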

Additional observations from a re-analysis of the deposited data

How the results depend on the processing

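The 14 members called with a difference of at least 0.5 kept sign and call in each of the 6 fits that left out 1 array, and 11 kept both under spike-in scaling. Over those 6 fits 14 to 18 members were higher and 13 to 15 lower, and 4053 to 4279 of all probe sets were called. By class the higher and lower counts were 6 to 7 and 1 for regulators, 4 to 6 and 7 to 9 for early, 2 to 3 and 4 for middle, and 2 and 1 for late genes.

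Scaling to the spike-ins gave 28 higher and 4 lower, with regulators at 7 and 0, early genes at 13 and 2, middle genes at 5 and 2 and late genes at 3 and 0. Differences below 0 as deposited that turned positive there were those of IME4 (0.059), HOP1 (0.21), RED1 (0.24), MEK1 (0.51), SPO11 (0.46), SPO13 (0.33), REC8 (0.38), REC104 (0.39), ZIP1 (0.45), ZIP2 (0.079), MSH5 (0.019), SPS2 (0.51), SPR28 (0.40) and DIT2 (0.39). This follows from the construction, which adds 0.518 to every difference.

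Leaving out the dimmest 25% of probe sets kept only UME6, RIM11, RIM15 and SPS100 of the 40, so 4 were higher (3 regulators, 0 early, 0 middle, 1 late) and 0 lower in any class, because 36 were not tested. Against a difference of 0.5, limma's treat called 1221 of all probe sets, 6 members higher (3 regulators, 1 early, 1 middle, 1 late) and 5 lower (0, 2, 3 and 0). At an adjusted p under 0.01, 13 were higher and 12 lower (early 3 and 6, middle 2 and 4), and 3810 of all 5498 probe sets were called. Quantile normalisation gave 17 and 15, with 2 late genes lower as DIT2 was called (-0.20, adjusted p = 0.0495). A variance trend with robust fitting gave 16 and 12, and array weights, whose estimation stopped short of its tolerance, 18 and 15. Over all probe sets these 3 settings called 4316, 4354 and 4575, in the order given, against 4327 in the main fit. Without the members below the brightest negative control, an alternative chosen after seeing the data, 15 were higher and 13 lower (early 4 and 7), and the same counts held at the LEU2 level. The lowest probe set per gene and a fit without cross-hybridising probe set types gave the same counts for the members.

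With the replicate number as a block 18 members were higher and 15 lower, and 4453 of all probe sets were called, against 4327. The members whose call it changed were RIM15, MEI4 and REC104 (adjusted p = 0.0324, 0.00104 and 0.0417). Deviations of same-numbered arrays correlated at 0.31, 0.049 and 0.258, and 4 of 6 arrays correlated best with their own number. Whether same-numbered cultures were paired is not stated in the sample titles and was not settled by these values. The main fit used no pairing, so a shared effect of the replicate number would be left in its error.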
